A study of Mus musculus with 6 samples.

Results

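Messenger RNA of 28 genes of cholesterol synthesis, sterol uptake and efflux, and their control by SREBP was followed in A20 cells, a B lymphoma line from a BALB/c mouse. The genes were chosen by name, as 31 symbols, and probe sets were taken from the platform annotation of the Affymetrix whole-genome mouse array. Of the 31, 28 had at least 1 probe set, 61 probe sets in all, among 18194 genes on the array. Acat2, Soat1 and Nr1h2 had no probe set under these symbols and are not analysed here. All 28 genes were above the floor described below on all 6 arrays.

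There were 6 conditions with 1 array each: TGF-β for 12 h with SP600125, TGF-β for 24 h with SP600125, SP600125 alone for 24 h, TGF-β alone for 12 h, TGF-β alone for 24 h, and untreated cells. SP600125 is an inhibitor of the JNK kinases, and the sample titles name DMSO for the 3 arrays without it, although another label gives normal growth medium for the untreated cells. The drug-alone cells had 24 h of drug, so the 12 h pair within the drug arm also differs in drug time. Doses are not given in the labels. The design asks which TGF-β responses of these cells depend on JNK.

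Cells make cholesterol from acetyl-CoA through mevalonate, isoprenoid and sterol intermediates. When membrane sterol is low, the escort protein SCAP carries the SREBP transcription factors out of the endoplasmic reticulum, and they are cleaved and switch on nearly every enzyme of the route. INSIG proteins hold SCAP back when sterol is high. LXR receptors do the opposite work: they sense oxysterols and switch on the exporters ABCA1 and ABCG1 and MYLIP, which sends lipoprotein receptors for degradation.

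Signals are deposited linear intensities scaled to a trimmed mean of 500.0 on each array, and array medians lay between 69.3 and 80.9. A floor of 74.2, the 50th percentile of every deposited signal, replaced lower signals, and log2 values were computed from there. The 24 h TGF-β array with SP600125 stood apart. It read 4291.2 for 18S ribosomal RNA, where the remaining 5 arrays read 370.9 to 651.4. For actin, its ratio of 3′ to 5′ signal was 1.89, where theirs was 1.25 to 1.51. In all 3 drug pairs this ratio was higher with SP600125. It was 1.51 with drug and 1.25 untreated, 1.32 and 1.29 at 12 h of TGF-β, and 1.89 and 1.25 at 24 h. For Gapdh the ratio was 0.88, 0.80 and 0.98 with drug and 0.79, 0.78 and 0.78 without, in that order. The 18S signal and the array median were also higher with drug in each pair. The part of RNA quality in the drug results was not tested. The TGF-β target Smad7 read 619.2 and 696.6 with SP600125 and 485.1 and 525.2 without on the TGF-β arrays. On the unstimulated arrays it read 121.1 with drug and 123.6 without. The targets Skil, Id2 and Id3 were also higher on every TGF-β array than on the unstimulated ones. Id2 and Id3 were lower with drug in all 3 pairs. Unstimulated, at 12 h and at 24 h, Id2 read 259.6, 2555.6 and 2052.3 with drug and 481.0, 2678.0 and 3516.9 without. In that order Id3 read 607.2, 2695.0 and 3010.5 with drug and 1039.0, 3174.4 and 3387.2 without. Skil was lower with drug at 12 h only, at 9688.7 against 10869.8. All 6 measured B cell markers were above the floor on every array, with Cd79b between 13467.9 and 19064.8 and Pax5 between 114.7 and 225.0. Of these Cd22, Ms4a1 and Cd79a were lower in all 3 drug pairs and Blnk higher in all 3. Ms4a1 read 7565.4, 6915.1 and 7083.1 with SP600125 and 14818.8, 12216.5 and 16048.3 without, Cd22 614.9, 1031.3 and 950.4 with it and 1949.8, 2158.0 and 2043.0 without, and Blnk 6191.7, 3244.8 and 4116.7 with it and 4087.7, 2853.0 and 3998.1 without. The part of these shifts in the drug results was not tested. Of 4 measured T and NK cell markers 3 were under the floor on every array, Cd3d at 4.0 to 13.4, and Cd3e passed it on both TGF-β arrays with drug, at 113.2 and 106.1. Of 4 measured myeloid markers, Adgre1 and Csf1r were above the floor on every array, at 171.7 to 496.6 and 277.1 to 405.5, Lyz2 lay around it at 58.9 to 96.8, and Itgam was under it at 6.8 to 48.3.

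"Rose" and "fell" are used of genes with a Benjamini-Hochberg adjusted p under 0.05 in limma, adjusted over all 11731 genes tested. The model is additive: the effect of SP600125 averaged over 3 pairs of arrays, and the effects of 12 h and 24 h of TGF-β each averaged over 2 pairs. No condition was repeated, so its error comes from how far arrays depart from the additive pattern. In limma a gene's own departure has 2 residual degrees of freedom. It is combined with a prior of 5.97 degrees of freedom drawn from all genes tested. The p-values cover this combined spread and no variation between cultures. Values after ± are standard errors from limma. "Higher" and "lower" are used of single pairs, which have no test. In a bulk sample, a change in the make-up of the cells and a change in RNA per cell cannot be told apart.

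Most genes of the cholesterol route fell with SP600125. Of the 28 genes 17 fell and 1 rose, where 3.69% of all genes tested fell and 3.99% rose. The median change of the 28 was −0.72 on the log2 scale, against 0.04 over all genes. On all 3 drug arrays 16 of the 28 genes were below all 3 arrays without drug, as 6.14% of all genes were, and 2 were above them, as 10.6% were. In single pairs 20 of the 28 were lower in all 3, against 18.4% of all genes, and 3 were higher in all 3, against 24.5%. Of 18 synthesis enzymes 14 fell, 0 rose and 4 did not pass.

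The plot of drug differences by gene shows the enzymes on the lower side in nearly every pair.

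**Figure D1:**
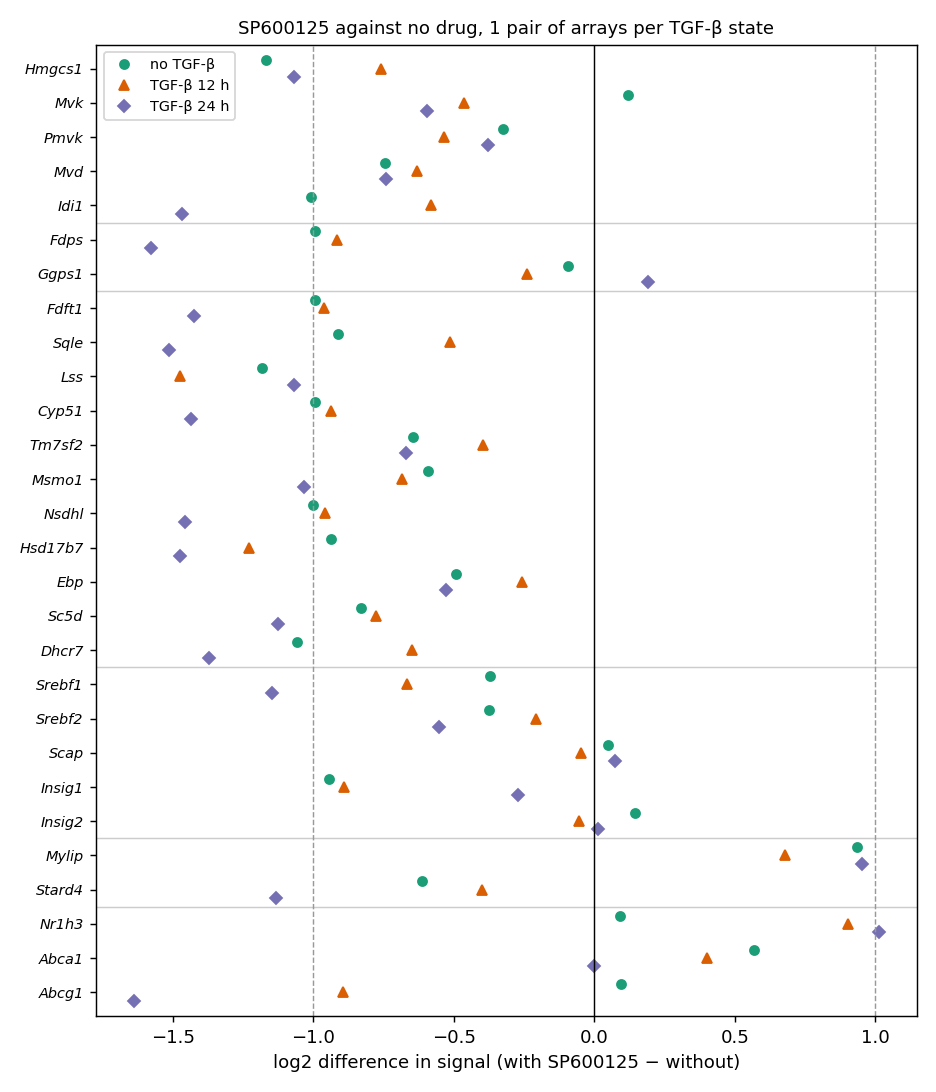
Log2 difference in signal between the array with SP600125 and the array without it (horizontal axis), for 28 genes in order of pathway step and role (vertical axis, groups parted by grey lines), with 1 point per TGF-β state and no error, since each point is 1 pair of arrays, and with dashed lines at a 2-fold difference. Enzymes from Hmgcs1 to Dhcr7 lie to the left, apart from Mvk without TGF-β and Ggps1 at 24 h, while Mylip lies to the right in all 3 pairs.

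In the 2-fold count of single pairs, 15 of the 28 genes were lower and 1 higher at 24 h of TGF-β, where 1.95% and 3.19% of all genes were. At 12 h 2 were lower and 0 higher, against 1.17% and 1.83%, and without TGF-β 4 were lower and 0 higher, against 1.34% and 3.26%. The median difference of the 18 enzymes was −0.93 without TGF-β, −0.67 at 12 h and −1.10 at 24 h. The 24 h pair contains the array with the 18S signal of 4291.2, and the part of that array in the larger 24 h differences was not tested.

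The 18 called genes kept their direction in every alternative run. Each went the same way in all 3 drug pairs, so leaving out 1 array could not change its direction. Settings that altered only the filter or the variance prior return the same change. The count of calls could move, and it did not hold. It was 5 fallen without the untreated array and 5 without the SP600125-alone array, 1 without the 12 h TGF-β array, and 0 without the 12 h array with drug or without either 24 h array. The median then lay between −0.81 and −0.58, and 0 rose in all of these fits. With a variance prior that ignores signal level 2 fell, and with no filter on low signals 0.

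Promoter sequence was read to count chosen motifs among the members and among all genes. RefSeq promoter windows (GRCm38.p6, 250 bases before to 50 after each start) were found for 26 of the 31 symbols, 13 of them among the 17 that fell, and none for Fdps, Fdft1, Sqle, Stard4 and Abcg1. Each motif was searched on both strands, and a gene counted if any of its windows held it. The 26 had 35 windows, and all 27025 genes with a window had 32851. The consensus sterol regulatory element, TCACNCCAC, to which SREBP binds, was in the window of 1 of the 26, Hmgcs1, and of 1.44% of all 27025 genes with a window. A shorter form, TCACCNCA, chosen after these windows were searched, was in 4 of the 26 and in 5.08% of all genes. It overlaps the longer motif in Hmgcs1. CCAAT, the site of NF-Y, which works beside SREBP at sterol genes, was in 13 of the 13 fallen genes with a window, in 21 of the 26, and in 41.1% of all genes. GGGCGG, the site of Sp1, was in 13 of those 13, in 22 of the 26 and in 38.2% of all genes. CACGTG was in 4 of the 13 and 8.09% of all genes, and the direct-repeat LXR element in 0 of the 26 and 0.0148% of all genes.

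The 4 windows with the shorter element are shown because they carry it. All 4 also hold CCAAT, as did 21 of the 26 members with a window. Each is printed from −190 to −11 relative to the start, on the gene's own strand, with both motifs in capitals (ATTGG is CCAAT on the other strand). They lie at chr13:119690161-119690340 on the plus strand, chr5:4104708-4104887 on the minus strand, chr1:169969216-169969395 on the minus strand and chr15:82147079-82147258 on the plus strand.
Hmgcs1: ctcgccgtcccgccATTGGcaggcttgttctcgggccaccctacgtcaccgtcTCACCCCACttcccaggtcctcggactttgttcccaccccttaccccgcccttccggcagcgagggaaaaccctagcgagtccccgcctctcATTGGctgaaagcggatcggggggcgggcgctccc
Cyp51: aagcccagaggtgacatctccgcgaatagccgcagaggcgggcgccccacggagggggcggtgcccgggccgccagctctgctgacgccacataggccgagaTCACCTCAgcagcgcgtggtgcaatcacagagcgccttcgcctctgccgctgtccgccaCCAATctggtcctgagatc
Hsd17b7: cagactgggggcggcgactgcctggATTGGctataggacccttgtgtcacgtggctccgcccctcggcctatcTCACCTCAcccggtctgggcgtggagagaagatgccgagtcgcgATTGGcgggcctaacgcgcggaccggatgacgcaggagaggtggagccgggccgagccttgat
Srebf2: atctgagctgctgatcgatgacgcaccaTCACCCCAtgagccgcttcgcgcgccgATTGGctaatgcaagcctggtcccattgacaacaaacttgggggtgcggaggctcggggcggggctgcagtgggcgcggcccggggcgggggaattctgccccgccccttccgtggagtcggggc
In Hmgcs1 the capitals run over the longer element. Of these 4 genes Hmgcs1, Cyp51 and Hsd17b7 fell with SP600125, and Srebf2 did not pass on its brightest probe set. A match shows letters only and says nothing about binding in these cells.

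The early steps make mevalonate and turn it into isoprene units. Hmgcs1, which makes HMG-CoA, had signals of 5804.9, 8973.8 and 6717.6 on the SP600125 arrays (0, 12 and 24 h of TGF-β, the order kept for all genes), against 13039.1, 15178.8 and 14088.2 without drug. No drug array reached any array without drug. It changed by −0.998 ± 0.096 on the log2 scale, with a limma adjusted p of 0.00155, and its other 4 probe sets were all below 0. Mvd, which decarboxylates mevalonate diphosphate, had 500.1, 539.9 and 559.4 with drug and 837.7, 836.9 and 935.2 without, again with no overlap, and changed by −0.71 ± 0.14 (limma adjusted p 0.0213). Idi1, the isomerase of isopentenyl diphosphate, had 3754.2, 5441.1 and 2555.2 with drug and 7557.7, 8133.4 and 7066.5 without. Its change was −1.02 ± 0.15, and the difference at 24 h of −1.47 was the furthest from 0 of its 3 pairs.

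Both kinases between Hmgcs1 and Mvd missed the threshold. Mvk, mevalonate kinase, had 575.9, 461.8 and 446.1 with drug and 530.3, 636.4 and 673.3 without, so that the 2 groups overlapped, and its change of −0.31 ± 0.18 did not pass. Pmvk, phosphomevalonate kinase, had 786.3, 842.7 and 719.1 with drug and 985.6, 1222.1 and 935.9 without. Its groups did not overlap, yet its change of −0.41 ± 0.12 had an adjusted p of 0.0858 in limma. Of the 5 measured mevalonate enzymes 3 fell and 2 did not pass.

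At the branch point, Fdps makes farnesyl diphosphate, the last precursor that sterols share with prenyl groups. Its signals were 3712.4, 4529.5 and 2729.3 with SP600125, against 7386.9, 8539.3 and 8160.9 without, and it changed by −1.16 ± 0.13 (limma adjusted p 0.00271). Ggps1 takes farnesyl diphosphate away from sterols into geranylgeranyl groups for protein prenylation. It had 1242.9, 1298.6 and 1578.8 with drug and 1326.7, 1532.1 and 1382.0 without, so that drug arrays lay on both sides of the drug-free ones, and its change was −0.05 ± 0.12, with a 95% interval of −0.32 to 0.23. Its other 3 probe sets were between −0.19 and 0.21, and none passed.

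**Figure D2:**
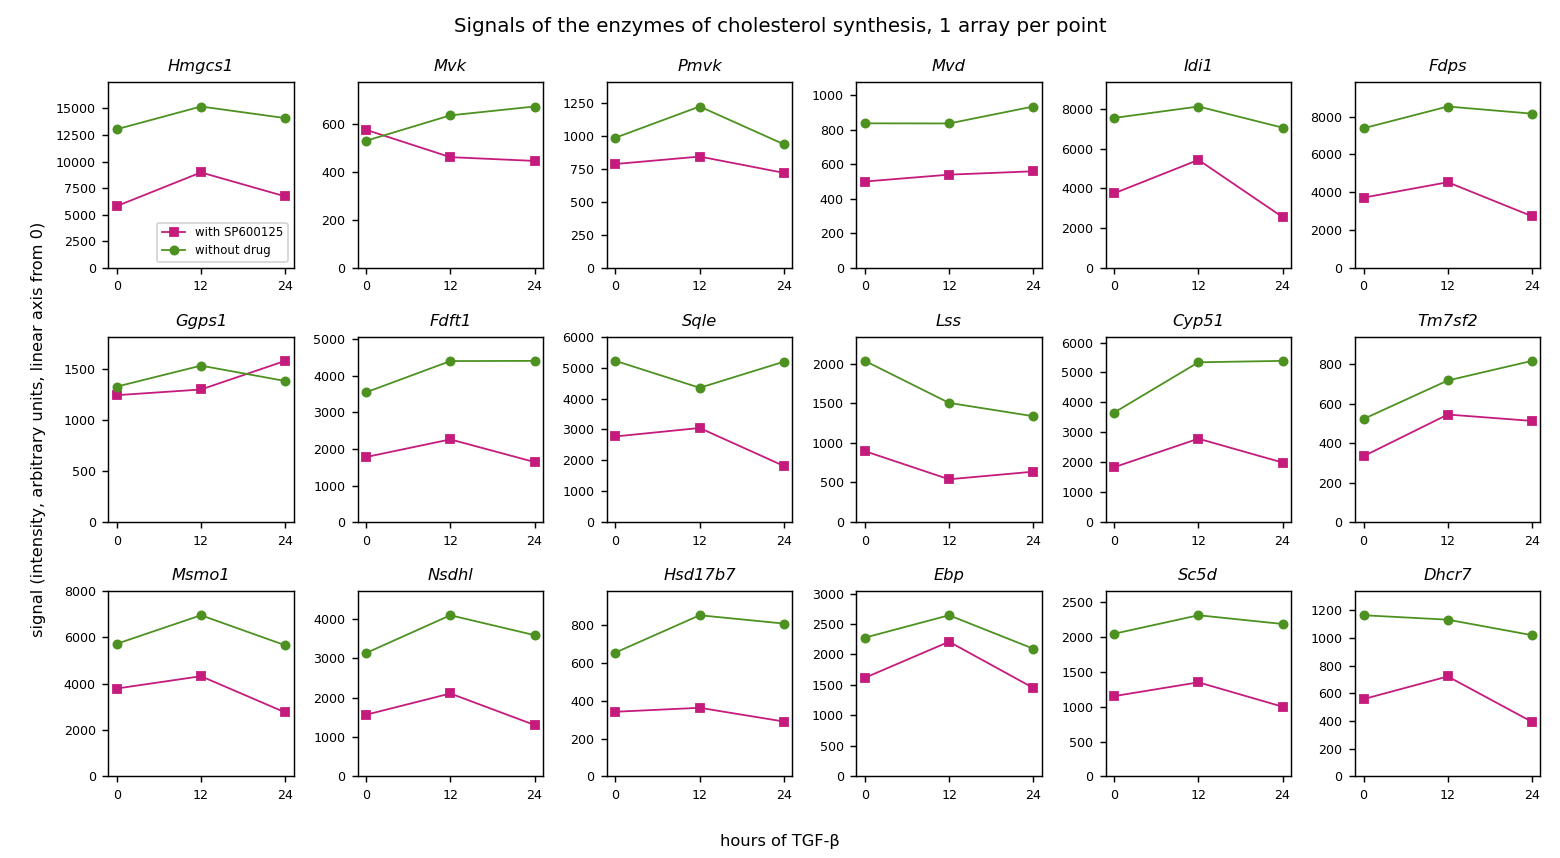
Signal (vertical axes, linear intensity from 0) by hours of TGF-β (horizontal axes) for the brightest probe set of 18 enzymes in pathway order, with SP600125 (squares) and without it (circles), 1 array per point and no error bars. The 2 lines stay apart in most panels, from 5804.9 against 13039.1 for Hmgcs1 without TGF-β to 394.9 against 1021.3 for Dhcr7 at 24 h, but cross for Mvk and Ggps1.

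Genes of the sterol branch fell at almost every step: of its 11 enzymes 10 fell and 1, Tm7sf2, did not pass. Fdft1, squalene synthase and the first enzyme committed to sterols, had 1780.6, 2263.2 and 1643.2 with SP600125 and 3552.1, 4406.2 and 4411.3 without. Sqle, the squalene epoxidase that adds the first oxygen, had 2773.9, 3047.5 and 1817.4 with drug and 5220.5, 4349.7 and 5194.0 without. Lss, which closes the ring to lanosterol, had 895.2, 540.0 and 636.0 with drug and 2033.7, 1503.7 and 1335.7 without. In all of these every drug array was below every other array. Fdft1 changed by −1.13 ± 0.11, Sqle by −0.98 ± 0.17 and Lss by −1.24 ± 0.13, with limma adjusted p of 0.0016, 0.014 and 0.00186.

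Cyp51, the demethylase that acts on lanosterol, had 1834.8, 2786.6 and 1990.0 with drug, against 3660.4, 5339.9 and 5386.6 without. It changed by −1.12 ± 0.11 (limma adjusted p 0.00167). Msmo1, the methylsterol oxidase of the next demethylations, had 3797.2, 4327.9 and 2764.7 with drug and 5727.0, 6959.5 and 5663.5 without. Both genes kept the drug and drug-free arrays apart. Nsdhl, the decarboxylating dehydrogenase that acts with MSMO1, had 1566.5, 2105.5 and 1306.8 with drug and 3132.5, 4090.8 and 3586.3 without. Hsd17b7, the ketoreductase of the same demethylation complex, had 341.9, 362.8 and 290.2 with drug and 654.7, 851.8 and 807.8 without. Msmo1 changed by −0.77 ± 0.10, Nsdhl by −1.14 ± 0.12 and Hsd17b7 by −1.22 ± 0.17. The other 3 Hsd17b7 probe sets were also below 0, between −0.84 and −0.38, but none passed.

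The last steps move, add or reduce double bonds. Ebp, the sterol isomerase, had 1617.7, 2209.4 and 1452.3 with SP600125 and 2276.1, 2643.4 and 2095.0 without, and its groups overlapped. Its change of −0.43 ± 0.10 was the smallest among the enzymes that fell, with a limma adjusted p of 0.0415. Sc5d, the sterol desaturase, had 1154.3, 1352.5 and 1002.2 with drug and 2050.5, 2316.2 and 2190.7 without, and changed by −0.91 ± 0.11. Its other 2 probe sets, at −0.32 and −0.25, did not pass (limma adjusted p 0.382 and 0.539). Dhcr7, which makes cholesterol from 7-dehydrocholesterol, had 559.2, 723.0 and 394.9 with drug and 1165.3, 1133.3 and 1021.3 without, and changed by −1.03 ± 0.17. Neither of these genes overlapped between groups. Tm7sf2, a sterol reductase, comes earlier, between Cyp51 and Msmo1 in the pathway order. It had 334.3, 545.6 and 513.3 with drug and 523.1, 718.2 and 817.7 without, which overlapped. Its change of −0.57 ± 0.15 had an adjusted p of 0.0656 in limma.

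Probe sets of the same gene were compared with each other, each fitted on its own with p-values adjusted over 21238 probe sets. Of the 61 member probe sets 56 were above the floor on at least 2 arrays, and 50 of these were below 0 with SP600125, of which 28 fell, while 1 of the 6 above 0 rose. Srebf2, the SREBP that drives sterol genes, split: the brightest probe set was at −0.38 with a limma adjusted p of 0.0849, and the other at −0.93 with 0.00235. Averaging all probe sets of each gene left 7 of the 28 fallen and 1 risen.

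**Figure D3:**
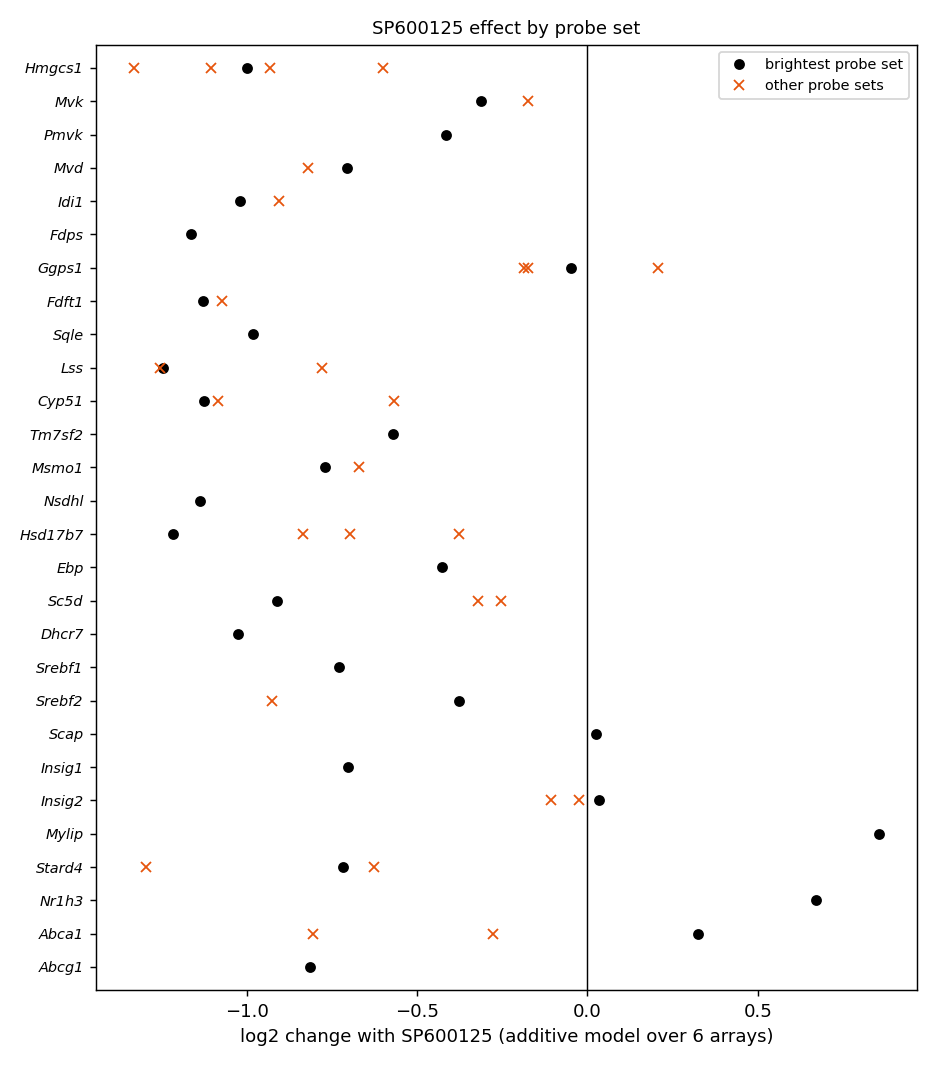
Log2 change with SP600125 in the additive limma model (horizontal axis) for the 56 member probe sets above the floor on at least 2 arrays, by gene in pathway order (vertical axis), with the brightest probe set of each gene as a dot and the others as crosses. For most enzymes all probe sets lie below 0, while those of Abca1 lie on both sides, at 0.32, −0.28 and −0.81.

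Among the genes that control SREBP, Insig1 and Srebf1 fell with SP600125, and Scap, Insig2 and Srebf2 did not pass. Insig1, itself an SREBP target, had 427.8, 758.8 and 900.0 with drug and 824.3, 1406.6 and 1086.6 without. The groups overlapped, since its signal with drug at 24 h was above that of untreated cells, and the change was −0.70 ± 0.16 (limma adjusted p 0.0411). Srebf1, the SREBP more tied to fatty acids, had 895.1, 1050.8 and 700.8 with drug and 1157.1, 1667.3 and 1551.1 without, with no overlap and a change of −0.73 ± 0.16. Srebf2 had 1711.6, 1498.0 and 1296.7 with drug and 2220.1, 1729.2 and 1902.5 without on its brightest probe set, also with no overlap. Scap and Insig2 were near 0, at 0.03 ± 0.11 and 0.04 ± 0.10, with 95% intervals of −0.22 to 0.27 and −0.19 to 0.26.

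Mylip was the 1 gene that rose with SP600125. This ubiquitin ligase, also called IDOL, marks receptors of the LDL receptor family for degradation. It had 579.7, 560.4 and 842.9 with drug, against 302.9, 350.3 and 434.8 without, so every drug array was above every other. It rose by 0.86 ± 0.16, with a limma adjusted p of 0.0201. Stard4, a carrier of sterol between membranes and a known SREBP target, went the other way, with 899.4, 1614.5 and 1149.3 with drug and 1375.6, 2132.1 and 2519.6 without. Its groups overlapped and its change was −0.72 ± 0.15 (limma adjusted p 0.0256). Of its other 2 probe sets, that at −1.29 passed and that at −0.63 did not (limma adjusted p 0.0192 and 0.0823).

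With TGF-β, Abca1 and Insig2 rose and Scap fell at both times, and Insig1 rose and Lss fell at 24 h. In the additive model 2 of the 28 genes rose and 1 fell at 12 h, against 2.6% and 2.37% of all genes, and 3 rose and 2 fell at 24 h, against 9.07% and 7.5%. At 24 h these counts are a share of the 28 near the background, and at 12 h they rest on 3 genes. The median of the 28 was 0.24 at 12 h and 0.03 at 24 h, beside 0.02 and 0.07 over all genes. Of the 18 enzymes 0 rose at either time, 0 fell at 12 h and 1, Lss, fell at 24 h. Both TGF-β times share the unstimulated arrays. The counts also rest on single arrays: at 12 h 1 rose without the SP600125-alone array and 0 without any other, and 0 fell. At 24 h 0 rose without either 24 h array, 1 without the untreated array and 2 without any other, and 0 fell.

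Abca1, the exporter that loads cholesterol onto apolipoprotein A-I, had the largest TGF-β changes of the 28 genes in that model. Its brightest probe set read 3585.6, 8513.5 and 10156.3 with SP600125 and 2416.6, 6445.0 and 10156.2 without drug, so all 4 TGF-β arrays were above both unstimulated arrays. This held for 3 of the 28 genes, Abca1, Abcg1 and Insig2, against 16.4% of all genes. The 12 h change was 1.33 ± 0.14 (limma adjusted p 0.00331) and the 24 h change 1.79 ± 0.14 (limma adjusted p 0.000518). Neither of its other 2 probe sets passed at either time, with limma adjusted p of 0.0674 and 0.141 at 12 h and 0.129 and 0.345 at 24 h, and averaging the probe sets ended both calls (0.148 and 0.132). On these 2 the 24 h response parted by drug. One read 663.0, 1610.9 and 670.4 with drug and 467.4, 1554.4 and 1756.1 without, and the other 183.2, 592.5 and 153.2 with drug and 206.4, 565.3 and 759.6 without. At 12 h they differed between the arms by 0.05 and 0.07, and at 24 h by −1.39 and −2.31, drug minus no drug, while the brightest probe set was equal. The 24 h array with drug is the one with the actin ratio of 1.89. The part of RNA quality in this split was not tested.

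Abcg1, the partner exporter that loads lipoprotein particles, read 265.4, 419.7 and 334.3 with SP600125 and 248.1, 781.2 and 1041.9 without drug. It was higher at both times in both arms, by 1.66 and 2.07 without drug and by 0.66 and 0.33 with it. The drug and drug-free arrays were close without TGF-β, at a difference of 0.10, and lay −0.90 and −1.64 apart at 12 h and 24 h. In the additive model Abcg1 did not pass at either time, with 1.16 ± 0.37 (limma adjusted p 0.118) and 1.202 ± 0.367 (limma adjusted p 0.0614). Nr1h3, which encodes LXRα, was close to the floor, with 101.5, 143.1 and 154.8 with drug and 95.3, 76.4 and 76.6 without. Its drug arrays were all above the others, but neither the drug change of 0.67 ± 0.23 nor the TGF-β changes passed.

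**Figure D4:**
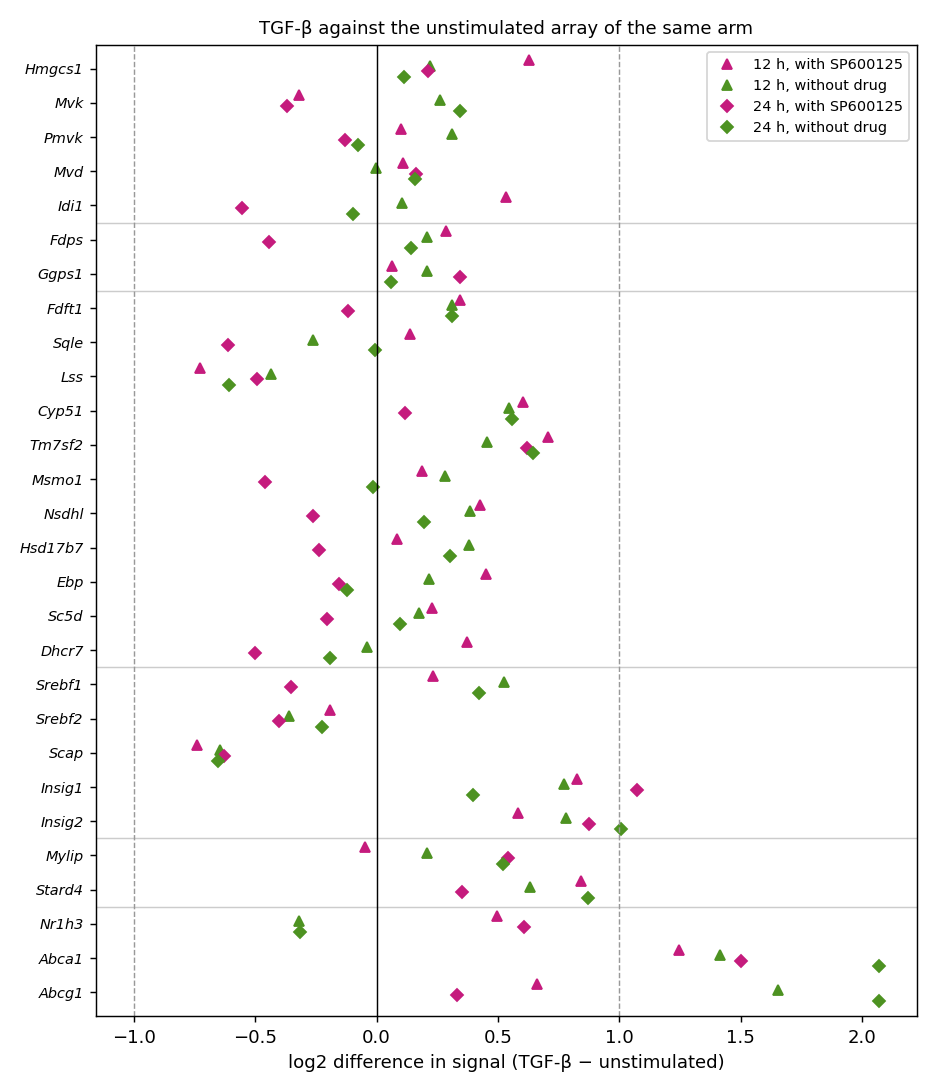
Log2 difference in signal between the TGF-β array and the unstimulated array of the same arm (horizontal axis) for 28 genes in pathway order (vertical axis), at 12 h (triangles) and 24 h (diamonds), with SP600125 (pink) and without it (green), 1 pair of arrays per point and dashed lines at a 2-fold difference. Abca1 lies past the 2-fold line in all 4 pairs, Scap, Lss and Srebf2 lie left of 0 in all 4, and none of the 18 enzymes reaches a 2-fold line in any pair.

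Among the genes of SREBP control Insig2 rose and Scap fell at both times, and Insig1 rose at 24 h alone. Insig2, the isoform that is not an SREBP target, read 1232.2, 1847.3 and 2262.8 with SP600125 and 1114.9, 1917.0 and 2240.3 without drug. All 4 TGF-β arrays were above both others, and the arms differed by 0.14, −0.05 and 0.01 at the 3 times. The change was 0.68 ± 0.12 at 12 h (limma adjusted p 0.0223) and 0.94 ± 0.12 at 24 h (limma adjusted p 0.00347), and both of its other probe sets also rose at both times. Insig1, whose signals are given above, rose at 24 h by 0.74 ± 0.20 (limma adjusted p 0.0423), while its 12 h change of 0.80 ± 0.20 did not pass (limma adjusted p 0.063). The 24 h call of Insig1 was lost with equal array medians (limma adjusted p 0.0684), with quantile normalization (0.0553) and in every fit that left out 1 array, and its change was 0.41 without the 24 h array with drug.

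Scap, the sterol-sensing escort of SREBP, read 1767.3, 1059.8 and 1144.0 with drug and 1709.8, 1095.3 and 1086.2 without. All 4 TGF-β arrays were below both unstimulated arrays, which was so for 1 of the 28 genes and 12.1% of all genes. The change was −0.69 ± 0.13 at 12 h and −0.64 ± 0.13 at 24 h, with limma adjusted p of 0.0269 and 0.0154. Lss, with the signals given above, changed by −0.55 ± 0.16 at 24 h (limma adjusted p 0.0493). Its TGF-β and unstimulated arrays overlapped, but within each arm both TGF-β arrays were below the unstimulated one. With each probe set fitted on its own this call was lost (limma adjusted p 0.0546). The other Lss probe sets were at −0.77 and 0.10, and neither passed (limma adjusted p 0.168 and 0.816).

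**Figure D5:**
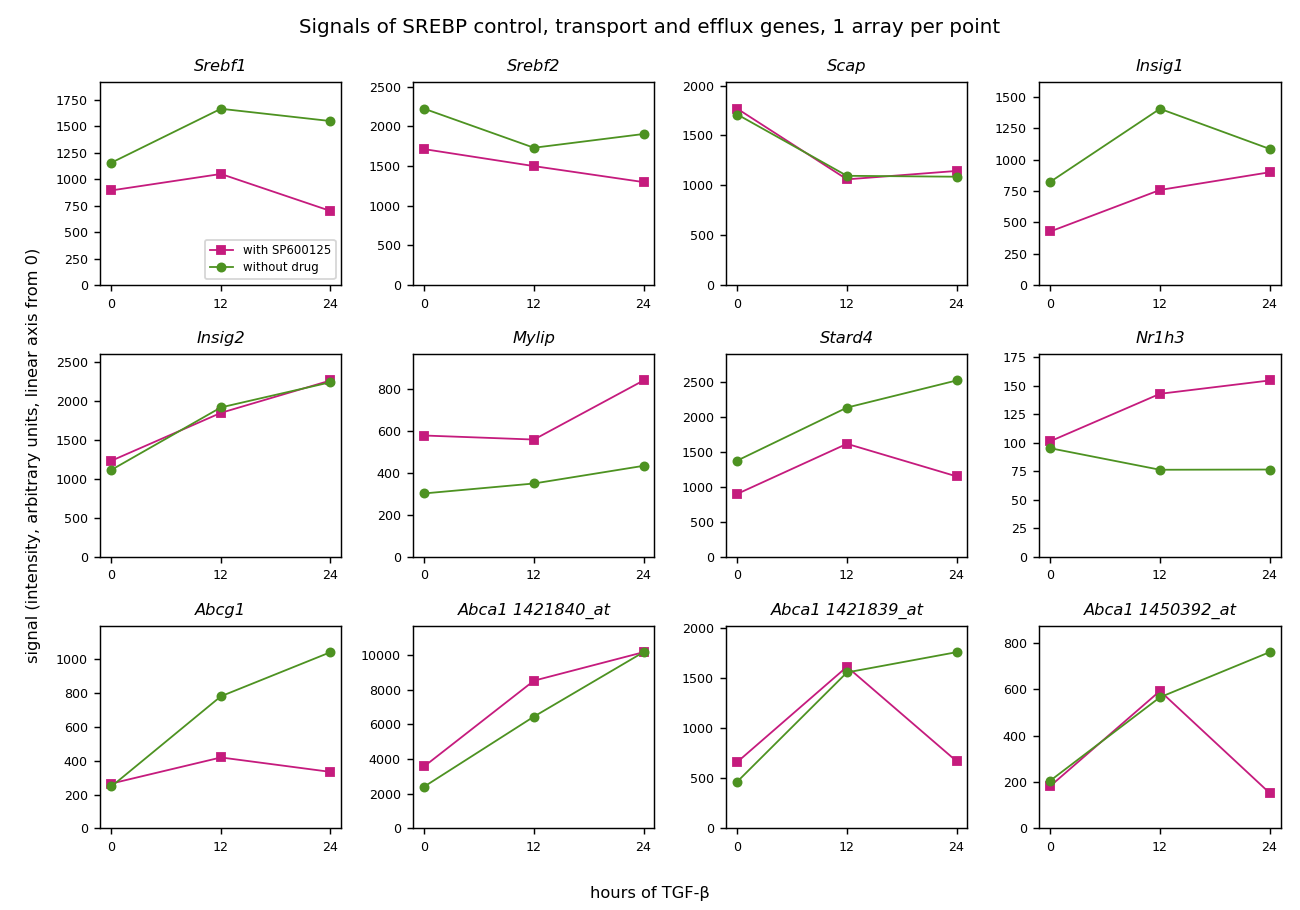
Signal (vertical axes, linear intensity from 0) by hours of TGF-β (horizontal axes) for 9 genes of SREBP control, transport and efflux and for each of the 3 Abca1 probe sets, with SP600125 (squares) and without it (circles), 1 array per point and no error bars. The 2 lines run together for Insig2 and Scap and apart for Mylip and Abcg1, where the 24 h signals were 334.3 with drug and 1041.9 without.

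In single pairs, 2 of the 28 genes were at least 2-fold higher at 12 h of TGF-β without drug and 3 at 24 h, against 3.38% and 5.64% of all genes, and 0 were 2-fold lower, against 1.5% and 1.97%. With SP600125 1 was higher at 12 h and 2 at 24 h, against 2.51% and 4.6%, with 0 lower, against 1.32% and 2%. The 2 at 12 h without drug were Abca1 and Abcg1, joined at 24 h by Insig2. With drug they were Abca1 at 12 h, and Abca1 and Insig1 at 24 h.

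Whether the drug changed the TGF-β response was tested by an interaction that took 12 h and 24 h as repeats of 1 state. It called 0 of the 28 genes in either direction, and 0% of all genes, at a limma adjusted p under 0.05. At an unadjusted p under 0.05 there were 2 of 28, against 2.69% of all genes. These were Abcg1, at −1.36 ± 0.44 with an unadjusted p of 0.0288 in limma, and Nr1h3, at 0.87 ± 0.30 with 0.0364. The 95% interval for Abcg1, −2.52 to −0.21, does not include 0, and its adjusted p was 0.999. For Abca1 the interval was −1.50 to 0.76 and for Insig2 −0.94 to 0.61, both including 0.

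Further genes of sterol and lipid handling were taken from lists of 61 symbols, of which 52 were tested. Over all the lists 7 rose and 8 fell with SP600125, where 3.99% and 3.69% of all genes did, and 5 rose and 7 fell at 24 h of TGF-β, where 9.07% and 7.5% did. Of 11 fatty acid genes driven by SREBP, 6 fell and 0 rose with SP600125, with a median of −0.60. Fasn, fatty acid synthase, read 3669.6, 2468.8 and 1886.8 with drug and 5335.4, 3749.3 and 3429.8 without and changed by −0.67 ± 0.10, and the desaturase gene Scd1 changed by −1.94 ± 0.14. At 24 h of TGF-β 4 of the 11 fell and 0 rose, Fasn by −0.80 ± 0.12.

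Of 7 genes of SREBP processing and sterol-regulated degradation, 1 rose and 1 fell with SP600125. Tmem97, a sterol-regulated membrane protein, read 3155.5, 1803.8 and 1270.4 with drug and 4148.4, 2349.7 and 1807.2 without, and changed by −0.43 ± 0.09 with drug and by −1.26 ± 0.11 at 24 h of TGF-β. Of 11 genes of sterol uptake, lysosomal release and transport 3 rose and 1 fell with drug, among them Stard5, a sterol carrier like Stard4, at 1.27 ± 0.20. Stard5 read 2676.2, 1186.6 and 1691.0 with drug and 691.0, 605.8 and 904.3 without, the reverse of Stard4.

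Of 8 LXR partners and targets 3 rose and 0 fell with SP600125, and 2 rose and 0 fell at 24 h of TGF-β. Apoc2, an apolipoprotein gene, read 621.5, 2136.9 and 6433.7 with drug and 98.4, 750.0 and 2295.3 without, and changed by 1.89 ± 0.22 with drug and by 3.96 ± 0.27 at 24 h of TGF-β. It was thus higher with drug at each time, unlike Abcg1. Of 10 genes of the isoprenoid branches 0 rose and 0 fell with drug. The 3 oxysterol genes and 2 genes of entry and side steps had no call with drug either. The oxysterol genes lay around the floor of 74.2, so a change in them could hardly be seen. Gpr183 read 6.0 to 98.7, Ch25h 9.3 to 134.2 and Hsd3b7 54.6 to 113.3. At 24 h of TGF-β Zmpste24 fell and Pggt1b rose among the 10, at −0.47 and 0.64, and Lbr fell among the 2, at −0.42.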

How the data were processed

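Messenger RNA was measured on 6 arrays, 1 per condition, grouped by sample title. The deposited values are linear intensity signals from GCOS 1.2, per the submitters' processing notes, with a trimmed mean of 500.0 on each array. No source used here states the GCOS settings. Of 45101 probe sets 34958 had 1 gene symbol, 932 several and 9211 were not listed. A gene was represented by the probe set with the highest mean signal. Signals were floored at 74.2 and taken to log2. Genes that passed the floor on 2 or more arrays were fitted in limma 3.58.1 (R 4.3.3, eBayes with an intensity trend): an additive model of TGF-β time and SP600125, with 2 residual degrees of freedom and a prior of 5.97, and a TGF-β by SP600125 model for the interaction. The fit was also run on simulated data with independent noise and a constant drug effect. Such data hold no array artefact or departure from additivity, so that run is no test of the calls here. Single pairs were described by a 2-fold rule. The number of arrays limits the precision. The 31 genes, the other lists and the tests were chosen with earlier results of these data known, and all 28 measured genes are named. Further genes are named from those with the lowest adjusted p of their list. Alternatives changed scaling, floor, probe set rule, filter, variance prior and arrays used.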

Additional observations from a re-analysis of the deposited data

Results flagged for a closer look

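Mvk and Nr1h3 were marked because TGF-β moved them one way at both times with SP600125 and the other way at both times without it. Mvk differed by −0.32 and −0.37 at 12 h and 24 h with drug, and by 0.26 and 0.34 without, and its interaction in limma was −0.65 on the log2 scale (adjusted p 0.999). Nr1h3 differed by 0.50 and 0.61 with drug, and by −0.319 and −0.315 without, and its interaction was 0.87 (limma adjusted p 0.999). Neither passed the test of the difference. The planned rule also set a minimum of 0.32 in each of the 4 pairs. Both genes missed it in at least 1 pair, so neither met the rule in full, and Nr1h3 lay close to the floor.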

How the results depend on the processing

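The 18 genes called for SP600125 kept their direction in all 180 values from 10 other settings, with 46 no longer past the threshold. They also kept it in all 108 values that left out 1 array, with 97 no longer past it. Leaving out either array of a drug pair gives the same change, so these 108 values repeat each other. Their direction was fixed in advance, since each gene went the same way in all 3 drug pairs. Several of the 10 settings also reuse the same log2 values. Averaging the probe sets of a gene gave 7 fallen; with no filter on low signals 0 fell and 0 rose; with no trend in the variance prior 2 fell and 0 rose. Leaving out 1 array gave 0 to 5 fallen, 0 risen and medians of −0.813 to −0.58. At 12 h of TGF-β, 2 fell with equal array medians. With log2(signal + 16), and also with genes above the floor on all arrays, 7 rose and 2 fell. The mean of all probe sets gave 1 risen and 0 fallen, and no filter or no trend gave 0 of each. Leaving out 1 array gave 0 to 1 risen and 0 fallen. At 24 h, 6 rose with log2(signal + 16) and with genes above the floor on all arrays. With no filter 0 rose and 0 fell, and 0 fell when probe sets were averaged or the prior had no trend. With specific probe sets preferred, or each probe set on its own (chosen after seeing the data), 1 fell. Leaving out 1 array gave 0 to 2 risen and 0 fallen. The 2-fold counts with equal medians were 8 for the drug without TGF-β, 4 at 12 h and 1 for 24 h of TGF-β with drug; at 12 h the drug count was 0 with the mean of all probe sets and 1 with specific ones. The causes were not tested. Pairing by replicate was not possible, since there was 1 array per condition and no replicate numbers exist to serve as a block. The additive model pairs by condition: it compares SP600125 within each TGF-β state and TGF-β within each arm.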
